A study of Homo sapiens with 2 samples.

Results

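The ZNF genes are the human genes named by the letters ZNF and a number, most of which encode proteins with zinc fingers of the C2H2 kind. Of 14884 named genes on the array, 471 had a symbol made of ZNF, digits and at most 1 final letter, and 246 of these were chosen by the mean log2 value of their brightest probe set over both arrays. That mean had to reach the median of all named genes (8.0209) rounded up at the third decimal, a level that 7440 named genes reached. The 246 genes, 243 protein-coding and 3 transcribed pseudogenes, are described here, and their mean level is a description and not a finding. They were measured in UACC62, an established human melanoma line grown in DMEM with fetal calf serum. The cells had been transfected with an siRNA specific for FOSL1 (1 array) or with a non-targeting siRNA (1 array), and all were harvested after 3 days. Nothing in the sources used here says whether the siRNA was 1 sequence or a pool, and each condition had 1 culture, so no p-value or replicate error can be given for any difference.

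A C2H2 zinc finger is a short fold held by a zinc ion, and arrays of such fingers read DNA, or in some proteins RNA. The largest subfamily carries a KRAB domain, which binds the corepressor TRIM28 and through it brings in the methyltransferase SETDB1 and HP1 proteins to silence retroelements. Genes of this subfamily arose by repeated local duplication and sit in dense clusters, above all on chromosome 19. FOSL1, the target of the siRNA, encodes a FOS family subunit of the transcription factor AP-1. The AP-1 site was searched here as TGANTCA, with any base in the middle.

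The arrays held the labelled knockdown and signal for part of the melanocyte markers. FOSL1 had a log2 value of 10.38 with FOSL1 siRNA and 11.90 with control siRNA, the lowest difference (-1.53) of the 7440 named genes that reached the level. Of 12 listed melanocyte markers on the array, 8 reached it, where 7440 of all 14884 named genes did. Among the 8 were MITF, SOX10, TYR and MLANA, while PMEL, TYRP1, OCA2 and GPR143 did not reach it. Of the markers of other cell types, KRT18, CD68 and LUM were above it and 12 were below. LUM, with a mean log2 value of 11.29, was brighter than each listed melanocyte marker, the brightest being TYR at 11.14. Both arrays had a median log2 value near 6.885 over 53427 probe sets, and the 2 sorted columns were never more than 0.0301 apart, so a change in total RNA per cell cannot be seen.

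A motif was shared by some members' promoter windows. The RefSeq windows (GRCh38.p14) run from 250 bases before to 50 bases after a gene's start, and 210 members had one. The sequences below belong to the member with the highest difference (ZNF235), to 2 of its neighbours in the same cluster of chromosome 19 (ZNF225 and ZNF284), to a member among the lowest differences with the same kind of match (ZNF32), to another pair of chromosome 19 members (ZNF83 and ZNF845), and to the member with the lowest difference (ZNF275). Capitals mark matches, on either strand, to TGANTCA, the form of the AP-1 site searched here, and to another motif. The other motif is ACTACA followed by any 2 bases and TCCC, the core of the site bound by ZNF143. It was searched after the sequences had been seen. Both strands were searched, and the motifs overlap nowhere in these windows.
ZNF235 (chr19:44304976-44305275, minus strand): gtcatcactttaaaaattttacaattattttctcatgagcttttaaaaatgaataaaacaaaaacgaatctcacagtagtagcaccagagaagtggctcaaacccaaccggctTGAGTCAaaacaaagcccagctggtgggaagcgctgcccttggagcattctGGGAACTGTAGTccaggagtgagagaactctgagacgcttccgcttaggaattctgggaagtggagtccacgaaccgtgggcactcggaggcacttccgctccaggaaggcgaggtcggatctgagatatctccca
ZNF225 (chr19:44113149-44113448, plus strand): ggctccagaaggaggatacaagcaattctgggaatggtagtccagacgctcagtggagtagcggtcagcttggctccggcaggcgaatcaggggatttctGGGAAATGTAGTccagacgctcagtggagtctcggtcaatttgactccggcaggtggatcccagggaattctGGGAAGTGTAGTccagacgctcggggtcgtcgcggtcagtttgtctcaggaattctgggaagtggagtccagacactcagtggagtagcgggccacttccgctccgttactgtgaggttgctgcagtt
ZNF284 (chr19:44071909-44072208, plus strand): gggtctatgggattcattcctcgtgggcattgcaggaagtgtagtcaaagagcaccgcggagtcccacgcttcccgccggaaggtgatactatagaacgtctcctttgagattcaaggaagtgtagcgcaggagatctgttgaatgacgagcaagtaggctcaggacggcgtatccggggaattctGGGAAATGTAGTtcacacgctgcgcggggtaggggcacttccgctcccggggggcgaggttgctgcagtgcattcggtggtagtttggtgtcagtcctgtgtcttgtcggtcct
ZNF32 (chr10:43648832-43649131, minus strand): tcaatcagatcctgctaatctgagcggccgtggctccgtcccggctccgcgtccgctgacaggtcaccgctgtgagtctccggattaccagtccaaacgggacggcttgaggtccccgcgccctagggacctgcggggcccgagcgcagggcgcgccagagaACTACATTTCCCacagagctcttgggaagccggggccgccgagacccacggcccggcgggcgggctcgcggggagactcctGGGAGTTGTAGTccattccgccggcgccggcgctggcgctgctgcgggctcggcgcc
ZNF83 (chr19:52690447-52690746, minus strand): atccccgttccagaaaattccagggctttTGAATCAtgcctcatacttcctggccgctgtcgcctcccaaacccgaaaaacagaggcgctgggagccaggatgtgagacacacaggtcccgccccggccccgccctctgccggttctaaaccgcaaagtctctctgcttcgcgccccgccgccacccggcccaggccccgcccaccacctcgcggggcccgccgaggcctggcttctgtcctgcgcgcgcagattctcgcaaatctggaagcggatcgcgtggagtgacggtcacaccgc
ZNF845 (chr19:53333499-53333798, plus strand): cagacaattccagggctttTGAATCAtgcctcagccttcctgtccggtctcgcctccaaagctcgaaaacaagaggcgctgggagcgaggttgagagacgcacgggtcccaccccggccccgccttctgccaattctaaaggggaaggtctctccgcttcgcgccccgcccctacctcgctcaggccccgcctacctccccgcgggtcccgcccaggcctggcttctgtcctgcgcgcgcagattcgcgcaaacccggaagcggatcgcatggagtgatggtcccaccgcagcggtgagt
ZNF275 (chrX:153333903-153334202, plus strand): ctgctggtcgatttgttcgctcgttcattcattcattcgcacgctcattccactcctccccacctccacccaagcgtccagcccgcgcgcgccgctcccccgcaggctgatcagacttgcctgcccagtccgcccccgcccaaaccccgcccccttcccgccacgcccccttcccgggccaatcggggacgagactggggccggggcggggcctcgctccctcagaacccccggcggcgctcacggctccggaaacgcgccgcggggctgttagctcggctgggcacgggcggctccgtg

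This ACTACA motif stood in the windows of 28 of 210 members (13.3%), against 228 of 5784 other named genes that passed (3.94%) and 1.96% of all 27305 genes with a window. Among ZNF genes under the level, 21 of 185 windows held it (11.4%), so the motif was not particular to the members. On chromosome 19 it was in 18 of 100 member windows, and elsewhere in 10 of 110. In the cluster that runs from ZNF576 to ZNF112 on chromosome 19, 7 of 9 members held it. The windows of ZNF235, ZNF225 and ZNF284, which are among the higher differences there, are shown above. The other holders, ZNF224, ZNF45, ZNF112 and ZNF234, had differences of 0.40, 0.16, 0.02 and -0.03. The motif lies 86 bases before the start of ZNF235, 150 and 78 before that of ZNF225, and 64 before that of ZNF284. The 28 members with it had a median log2 difference of 0.13 and the 182 without it 0.09, and ZNF32, which holds it at 88 and 7 bases before its start, lay at -0.36. Of the 28, 18 lie on chromosome 19, where the median of all members was 0.14. ZNF143, itself a member and an activator of snRNA and many other promoters, had log2 values of 9.27 with FOSL1 siRNA and 9.22 with control siRNA. Its close relative ZNF76 had 8.54 and 8.67 in the same order.

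The searched form of the AP-1 site was found in few member windows. TGANTCA stood in 10 of 210 member windows (4.76%), against 4.25% of the other genes that passed and 7.76% of all genes with a window. Counting every listed window of a gene gave 13 members. The 10 had a median log2 difference of 0.10 and the 200 without it 0.09. Of the 10, ZNF235, ZNF83 and ZNF845 were at least 1.2-fold higher with FOSL1 siRNA (30%, where 22.0% of the 200 members without it and 14.6% of other genes with it were), and none was as much lower. ZNF235 reached the level that chose the members only with FOSL1 siRNA. The windows of ZNF83 and ZNF845 were 80.3% identical over 310 aligned positions and each holds a match, whereas that of ZNF83 was 48.2% identical to that of ZNF235. The middle base of the match was A or T in ZNF83, ZNF845, ZNF460 and ZNF317, and C or G in the rest of the 10. These kinds of match were not analysed apart. A match in a window is a run of letters and was not tested as a binding site.

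Across the members, log2 values leaned to the side of FOSL1 siRNA. The median log2 difference (FOSL1 siRNA minus control siRNA) was 0.09 over the 246 members and -0.00 over all 7440 genes that passed, and the members' quartiles were -0.06 and 0.23. Of the members, 157 (63.8%) were above 0, where 49.8% of all genes that passed were, 88 were below and ZNF672 was at exactly 0. A difference of 1.2-fold or more on the higher side was seen in 54 members (22.0%, background 11.1%), and on the lower side in 9 (3.66%, background 9.78%). Among the members, 19 reached the level in 1 array only, most of them only with FOSL1 siRNA. The sign of their difference was fixed by that, and those past 1.2-fold are in these counts. At 1.5-fold the counts were 5 higher (2.03%, background 1.13%), 4 of which reached the level only with FOSL1 siRNA, and 1 lower (0.407%, background 0.766%), and no member differed by 2-fold in either direction (background 0.0806% higher and 0.0403% lower). Among the 227 members with both arrays at the level, 1 was at least 1.5-fold higher (0.441%), where 0.842% of all genes so filtered were. In 185 genes with several probe sets at the level and of different values, the 2 brightest were compared. The SD of the log2 difference for 1 probe set was 0.181, the SD of the gap between the 2 divided by the square root of 2. It holds no probe sets under the level, and it leaves out all variation between cultures.

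**Figure D1:**
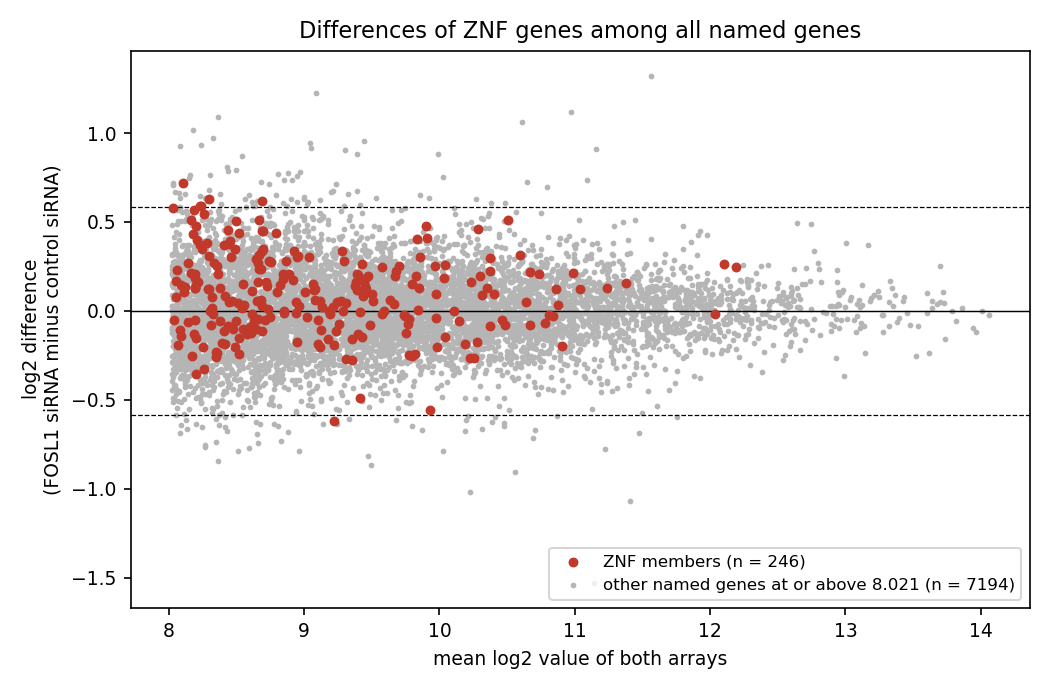
Mean log2 value of both arrays (x axis) against the log2 difference, FOSL1 siRNA minus control siRNA (y axis), for 246 ZNF members (red) and 7194 other named genes at or above the level (grey), with dashed lines at 1.5-fold. More members lie above 0 (157) than below (88), and 5 lie above the upper dashed line against 1 below the lower one.

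The 12 highest differences mostly came from dim genes. In 8 of the 12 the control array was under the level that chose the members, so these genes entered only through their value with FOSL1 siRNA. ZNF235 (Entrez gene 9310, probe set 16873148) had log2 values of 8.46 with FOSL1 siRNA and 7.74 with control siRNA, 1.65-fold higher and rank 35 of the 7440 genes. ZNF25 had 8.61 with FOSL1 siRNA and 7.98 with control siRNA, and ZNF449, which carries a SCAN dimerisation domain, had 8.997 and 8.38 in the same order. Of these 3, only ZNF449 reached the level in both arrays. ZNF417, which represses endogenous retroviruses of the HERV-K group, had 8.54 with FOSL1 siRNA and 7.94 with control siRNA, and ZNF225 had 8.53 and 7.94. ZNF91, which represses SVA retroelements, had 8.47 with FOSL1 siRNA and 7.90 with control siRNA. ZNF566, ZNF639 and ZNF320 were likewise under the level with control siRNA, at 7.74, 7.99 and 7.91, and lay at 8.32, 8.53 and 8.42 with FOSL1 siRNA. Brighter than the rest was ZNF770, with 10.76 with FOSL1 siRNA and 10.25 with control siRNA, whose other, dimmer probe set gave 0.30. ZNF536, a repressor known from neuronal differentiation, had 8.92 with FOSL1 siRNA and 8.41 with control siRNA, and ZNF618, a partner of UHRF2, had 8.75 and 8.24. On chromosome 19 lay 7 of the 12.

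The lowest differences came from brighter and shorter genes. Of the 12 lowest, 8 had a mean log2 value of 9 or more, none was under the level with FOSL1 siRNA, and 7 spanned at most 10.1 kb of the genome, as did 1 of the 12 highest. ZNF275 (Entrez gene 10838, probe set 17107969) had 8.91 with FOSL1 siRNA and 9.53 with control siRNA, 1.53-fold lower, and was the member past 1.5-fold on that side. ZNF414 had 9.65 with FOSL1 siRNA and 10.21 with control siRNA. ZNF385A, a protein also called HZF that binds p53 and steers it toward cell cycle arrest genes, had 9.17 with FOSL1 siRNA and 9.66 with control siRNA. These 3 were apart from the next member, ZNF32, at -0.36. ZNF77, ZNF598, ZNF580, ZNF622 and ZNF358 lay between -0.33 and -0.26. Completing the 12, ZNF703, ZNF696 and ZNF513 had differences of -0.26, -0.25 and -0.25.

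**Figure D2:**
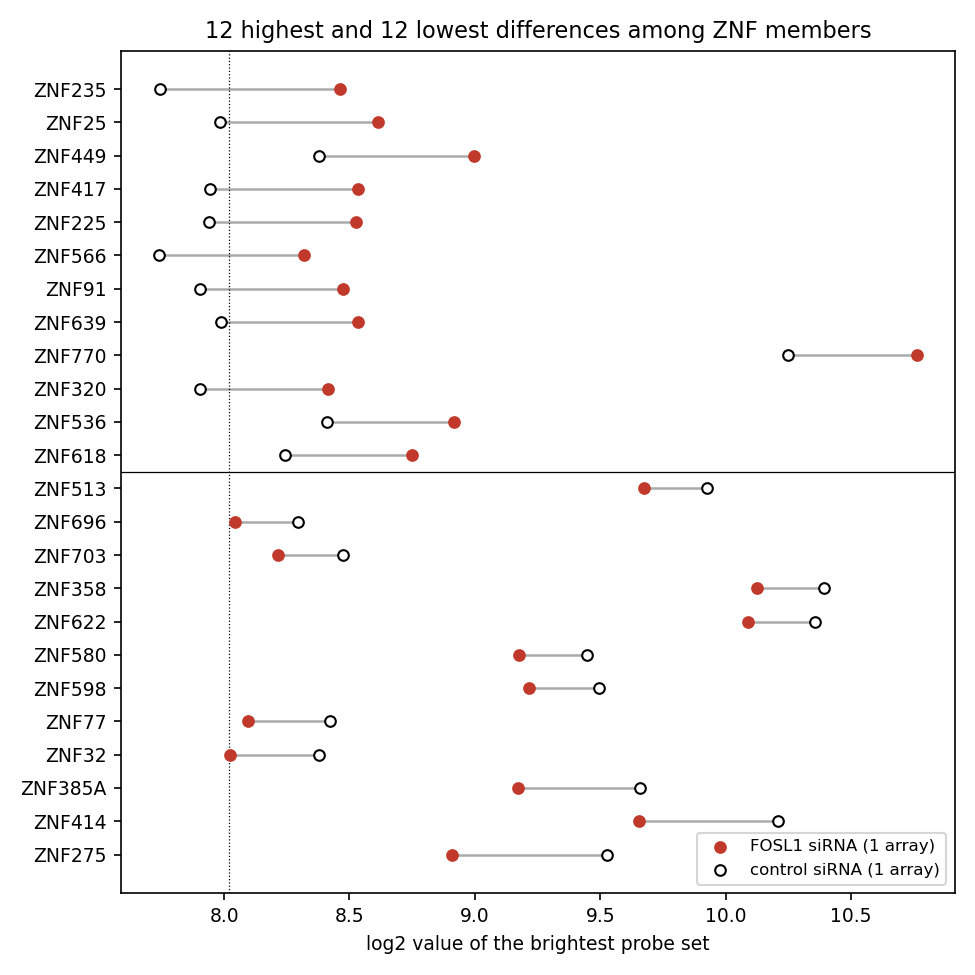
Log2 values of the brightest probe set with FOSL1 siRNA (filled red) and control siRNA (open) for the 12 members with the highest differences (above the line) and the 12 with the lowest (below it), 1 array each, with the level that chose the members dotted. In 8 of the upper 12 the control value lies left of the dotted line, and in none of the lower 12 does the FOSL1 siRNA value.

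Nearest the level, ZNF566 (mean log2 value 8.03), ZNF534 (8.04), ZNF175 (8.05) and ZNF542P (8.06) were the dimmest members, with differences of 0.58, -0.05, 0.08 and 0.17. Just under it, ZNF616, ZNF37A, ZNF229 and ZNF354A had differences of 0.50, 0.09, 0.71 and 0.20. The 225 ZNF genes under the level had a median of 0.11, with 144 above 0 (64.0%). The 121 of them with a mean from 7 up had a median of 0.20 and the 104 dimmer ones 0.05. Members whose arrays both reached the level numbered 227, and their median was 0.06 with 141 above 0. The share above 0 over all genes so filtered is not given here. A further 16 members reached the level only with FOSL1 siRNA and 3 only with control siRNA, with medians of 0.49 and -0.14. The signs of these medians were fixed by the way the members were split.

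Chromosome 19 held 111 of the 246 members (45.1%), against 7.78% of all genes that passed. There the members had a median log2 difference of 0.14, with 82 above 0, 34 higher by 1.2-fold or more and 4 lower by as much. Among the 34, ZNF235, ZNF225, ZNF566, ZNF91, ZNF320 and ZNF417 reached the level only with FOSL1 siRNA. The 468 other genes of chromosome 19 that passed lay on the opposite side, with a median of -0.13, 100 above 0, 11 higher by 1.2-fold or more and 99 lower by as much. Away from chromosome 19, the 135 members had a median of 0.04, the other 6726 genes 0.01, and the shares above 0 were 55.6% and 51.3% in that order. On chromosome 16, by contrast, the 19 members had a median of -0.13 and 8 above 0, and the 376 other genes there had -0.07. The 17 members on chromosome 7 had a median of 0.02. All 7 members on chromosome 9 were above 0, as were all 4 on chromosome 11, all 3 on chromosome 4 and the 1 on chromosome 14 (background over all genes that passed 49.8%). On chromosome 8, 2 of 9 were above 0 (median -0.10), on chromosome 20, 1 of 6 was (median -0.06), and neither of the 2 on chromosome 5 was. Members lay on 21 chromosomes, and those named here besides 19 were picked after their values were seen. Except for chromosomes 16 and 19, the other genes of each chromosome are not given beside its members. No test of these differences was possible with 1 array per condition.

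**Figure D3:**
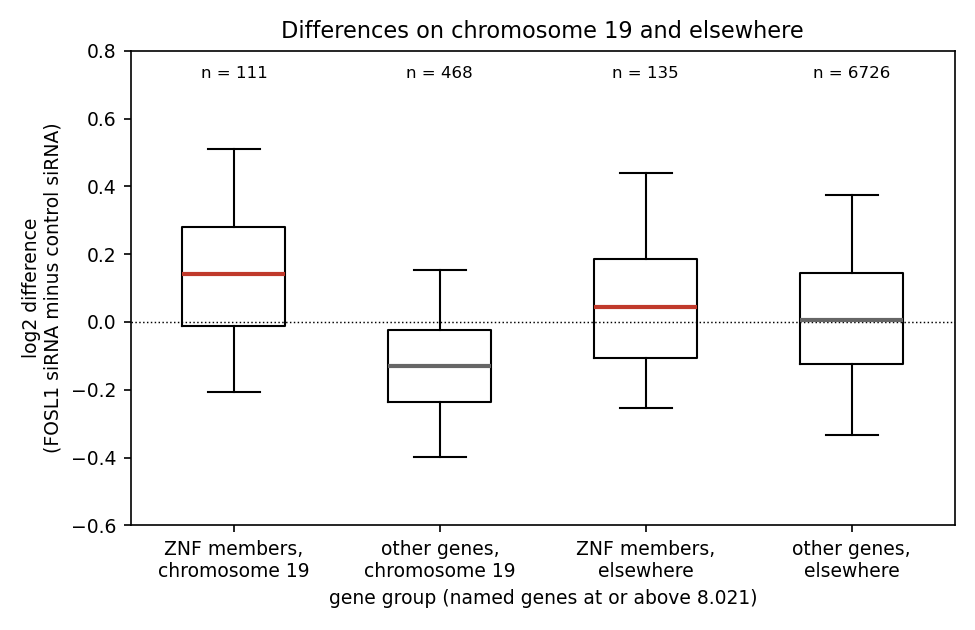
Log2 difference, FOSL1 siRNA minus control siRNA (y axis), of ZNF members and other named genes at or above the level, on chromosome 19 and elsewhere. Boxes run between the quartiles with the median as a coloured line, and whiskers run between the 5th and 95th percentiles. Medians are 0.14 and -0.13 on chromosome 19, and 0.04 and 0.01 elsewhere.

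Gene span moved with the difference in members and in other genes. Over 246 members the log2 difference had a Pearson correlation of 0.31 with log10 span, and over 7194 other genes 0.33, across genes that share the same 2 arrays. Among genes of up to 10.1 kb the medians were -0.09 for 36 members and -0.11 for 1824 others. Between 10.1 and 27.4 kb, where 112 members lie, they were 0.13 for members and -0.03 for 1748 others. From 27.4 to 67.5 kb they were 0.09 for 67 members and 0.04 for 1793 others, and above that 0.21 for 31 members and 0.08 for 1829 others. In the band from 10.1 to 27.4 kb, 56 members on chromosome 19 had a median of 0.16 and 171 other chromosome 19 genes -0.13, while 56 members elsewhere had 0.02 and 1577 other genes elsewhere -0.02. With a trend on span removed over the genes that passed, the members' median was 0.10. Promoter base composition differed too, with a median GC content of 62.5% in members and 66.0% in the other genes. Its correlation with the difference was -0.22 over 210 members and -0.12 over 5784 others. The part of span or base composition in the members' values was not tested beyond these settings.

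**Figure D4:**
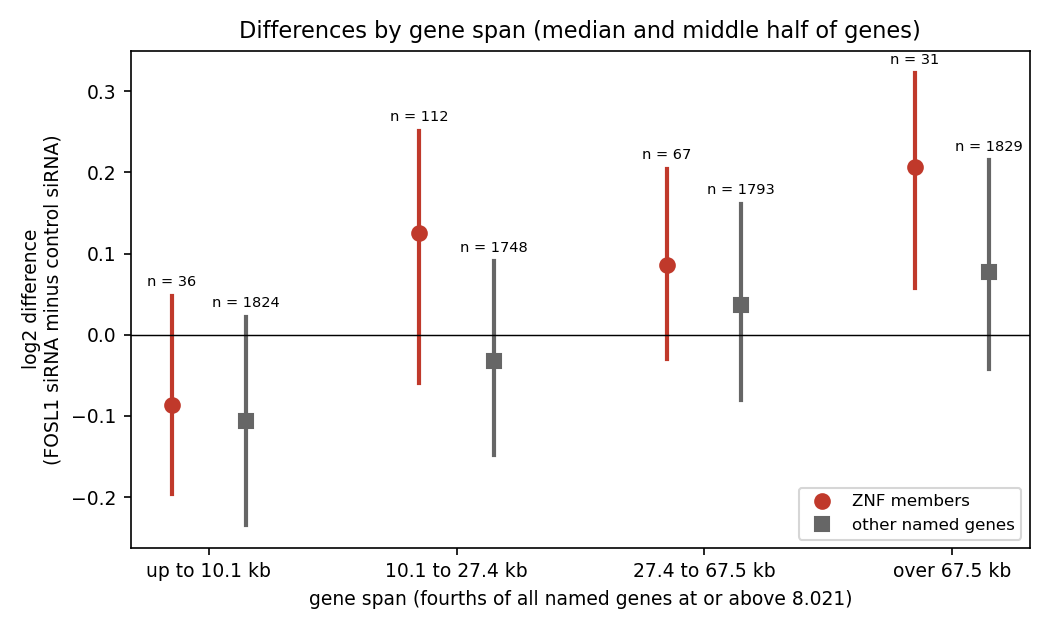
Log2 difference, FOSL1 siRNA minus control siRNA (y axis), in 4 bands of gene span (x axis, kb) for ZNF members (red circles, median) and other named genes (grey squares, median), with lines between the quartiles. The members' median lies above that of the other genes in each band, by most between 10.1 and 27.4 kb (0.13 and -0.03).

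The differences of neighbouring members were positively correlated. Members with at most 500 kb between successive ZNF genes formed 10 clusters of 5 or more members, 7 of them on chromosome 19, which together held 118 members. Adjacent ZNF genes that were both members made 81 pairs, pooled over chromosomes, and some of these lay outside the 10 clusters. Their log2 differences had a Pearson correlation of 0.41, and over the 52 pairs on chromosome 19 one of 0.32. Differences in level between clusters enter the pooled value, and pairs of other neighbouring genes were not examined. Neighbours can share related sequence and similar span, and probe sequences were not used here. The highest cluster median was 0.23, in the 18 members from ZNF175 to ZNF845, of which 15 were above 0 (83.3%, background 49.8%) and 8 at least 1.2-fold higher (44.4%, background 11.1%). In this run ZNF320, ZNF480 and ZNF615 had 0.51, 0.46 and 0.45, while ZNF611 had -0.08.

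A second cluster, from ZNF414 to ZNF562, had a median of 0.22 with 7 of 8 above 0, and its exception was ZNF414, at its edge. ZNF559 had 0.45 there and ZNF266 0.30. The 13 members from ZNF146 to ZNF570 had a median of 0.16, and the 9 from ZNF576 to ZNF112 the same. In the last of these ZNF235, ZNF225, ZNF224 and ZNF284 had 0.72, 0.59, 0.40 and 0.34, whereas ZNF234, ZNF227 and ZNF112 lay between -0.03 and 0.02. The 7 members from ZNF101 to ZNF254 had a median of 0.15, with ZNF91 at 0.57, ZNF100 at 0.48 and ZNF431 at 0.39. The longest run, 29 members from ZNF264 to ZNF446, had a median of 0.12 with 22 above 0. ZNF417 (0.59) and ZNF416 (0.44) led it, and ZNF497, ZNF837 and ZNF584 lay between -0.25 and -0.21 near its far end.

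Not all clusters leaned upward. The 10 members from ZNF579 to ZNF71 on chromosome 19 had a median of -0.03 with 4 above 0, and their median span was 11.1 kb. On chromosome 16 the 10 members from ZNF771 to ZNF267 had the lowest cluster median, -0.18, and a median span of 9.49 kb. ZNF764, ZNF688, ZNF668 and ZNF747 had -0.24, -0.23, -0.20 and -0.19 there, and ZNF267 lay on the other side at 0.32. The 9 members on chromosome 7 from ZNF786 to ZNF862 had a median of -0.04. Among close copies, ZNF585A and ZNF585B had -0.07 and 0.18, ZNF780A and ZNF780B 0.35 and 0.14, and ZNF280A, ZNF280B and ZNF280C -0.02, 0.10 and 0.32. With an SD of 0.181 for 1 probe set, gaps of this size do not show that copies went apart. Values of such relatives are uncertain, since probes can pick up more than 1 of them.

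**Figure D5:**
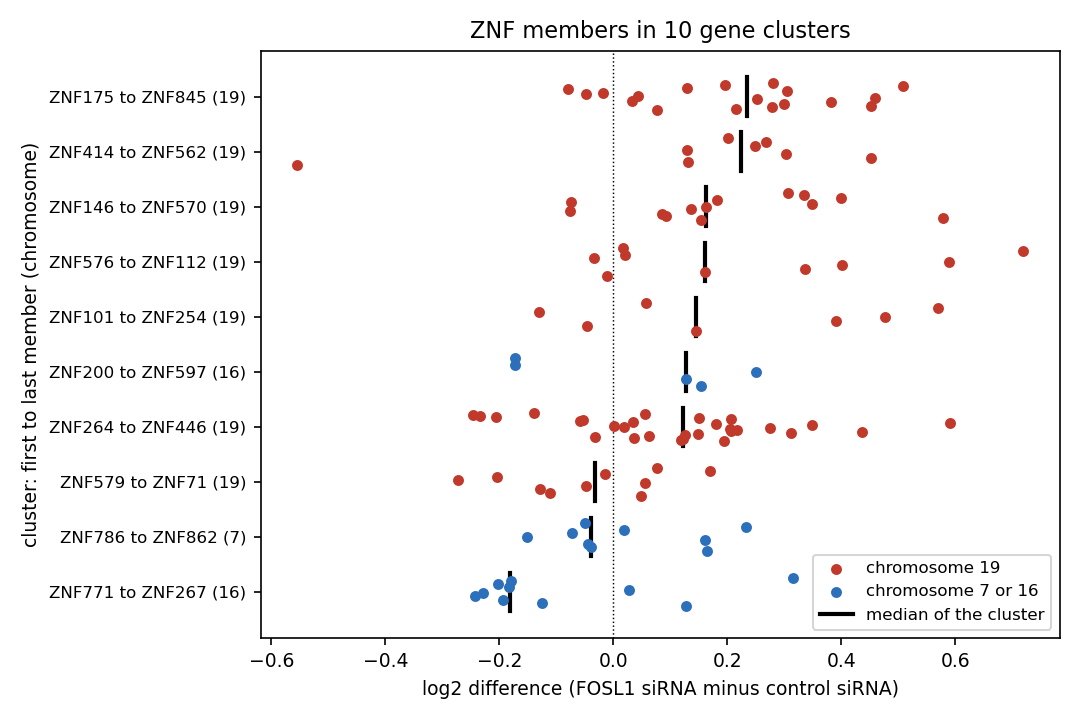
Log2 difference, FOSL1 siRNA minus control siRNA (x axis), of each member in 10 gene clusters (y axis, named by their end members), with chromosome 19 in red, chromosomes 7 and 16 in blue and the cluster median as a black bar. Of the 7 clusters on chromosome 19, 6 have a median above 0, and the lowest median is that of the cluster from ZNF771 to ZNF267 on chromosome 16 (-0.18).

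Members that act on RNA and ribosomes lay on both sides of 0. All 12 on that list passed, with a median of 0.02, 6 above 0, 2 at least 1.2-fold higher (16.7%, background 11.1%) and 3 as much lower (25%, background 9.78%). ZNF385A, which also binds RNA and whose values stand above, had the largest difference of the list, -0.49. ZNF622, a factor of 60S ribosomal subunit maturation, had log2 values of 10.09 with FOSL1 siRNA and 10.36 with control siRNA. ZNF598, the ubiquitin ligase that senses collided ribosomes, had 9.22 with FOSL1 siRNA and 9.49 with control siRNA. ZNF593, another ribosome maturation factor, lay at -0.07. On the higher side, ZNF106, an RNA-binding protein, had 12.24 with FOSL1 siRNA and 11.97 with control siRNA, and ZNF473, which helps process histone pre-mRNA, had 9.56 and 9.30. ZNF326, of the DBIRD complex that links splicing to transcription, and ZNF638, which works with the HUSH complex, had differences of 0.26 and 0.25. ZNF330, ZNF830 and the double-stranded RNA binder ZNF346 had 0.14, 0.05 and -0.06. ZNF207, the spindle and kinetochore protein BuGZ, was among the brightest members and differed little, with 12.03 and 12.04.

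Corepressors and chromatin-linked members had a median of -0.08 over the 16 of 19 that passed, with 6 above 0 (37.5%, background 49.8%), 1 at least 1.2-fold higher (6.25%, background 11.1%) and none as much lower. The one higher was ZNF644, a partner of the H3K9 methyltransferases EHMT1 and EHMT2, with 10.01 with FOSL1 siRNA and 9.71 with control siRNA. ZNF532, ZNF592 and ZNF687, which form a complex with the chromatin reader ZMYND8, had differences of 0.21, -0.05 and -0.25. ZNF462, ZNF518B and ZNF521 had 0.20, 0.20 and 0.12, and ZNF827, which recruits the NuRD complex, had 0.05. ZNF217, a CoREST-linked oncoprotein, lay at -0.02. ZNF703, a corepressor amplified in luminal breast cancer, had 8.22 with FOSL1 siRNA and 8.48 with control siRNA. ZNF335 and ZNF512B had -0.15 and -0.19, and ZNF516, ZNF524 and ZNF446 lay between -0.14 and -0.11. ZNF451, a SUMO ligase, gave -0.20 on its brightest probe set and 0.23 on the other, so it has no settled direction.

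Activators and other sequence-specific regulators had a median of 0.03 over the 10 of 12 that passed, with 6 above 0, 1 at least 1.2-fold higher (10.0%, background 11.1%) and none as much lower. The one was ZNF410, which in erythroid cells keeps the NuRD subunit gene CHD4 active, had 8.79 with FOSL1 siRNA and 8.53 with control siRNA, while CHD4 itself had 11.36 on both arrays. ZNF652 had a difference of 0.21, ZNF263 0.13 and ZNF281, a regulator of stemness and mesenchymal genes, 0.09. ZNF367 and ZNF148 lay at 0.00 and -0.00, ZNF384 at -0.02 and ZNF395 at -0.11. The second passing probe set of ZNF384 gave -0.17.

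SCAN domain genes, whose proteins pair through that domain, had a median of 0.08 over the 14 of 21 that passed, with 9 above 0 (64.3%, background 49.8%) and 3 at least 1.2-fold higher (21.4%, background 11.1%). All 21 together had a median of 0.02, with 12 above 0. The 3 were ZNF449, ZNF202 (8.61 with FOSL1 siRNA and 8.31 with control siRNA) and ZNF287 (8.79 and 8.496). ZNF274, which brings SETDB1 to the 3' ends of other zinc finger genes, had a difference of 0.21, and ZNF24 had 0.19. ZNF263 and ZNF446, which carry the domain too, were at 0.13 and -0.14. ZNF18, ZNF394, ZNF500, ZNF444 and ZNF496 lay between -0.05 and 0.11. ZNF174 and ZNF445 were at -0.17 and -0.20.

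Genes tied to retroelement silencing or imprinting lay on both sides of 0. Over all 12 on the list the median was 0.03, with 6 above 0 and 6 below. The 7 that passed had a median of 0.28, with 4 at least 1.2-fold higher (57.1%, background 11.1%), and ZNF417 and ZNF91 were among them only through their values with FOSL1 siRNA, so the members that passed give no support to a direction. Besides ZNF417, ZNF91 and ZNF202, this count holds ZNF649, with 9.004 with FOSL1 siRNA and 8.73 with control siRNA. ZNF382 and ZNF808 had 0.09 and -0.02, and ZNF445, which guards imprinted regions, had -0.20. Listed members that did not pass included ZNF93, which represses LINE-1 elements, at 6.14 with FOSL1 siRNA and 6.29 with control siRNA. ZNF587, the close relative of ZNF417, had 6.56 and 6.47.

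Among 24 genes of the shared silencing machinery on the array, 22 passed, with a median of 0.02, 12 above 0 and 2 at least 1.2-fold higher (9.09%), close to the 11.1% of all genes that passed. None was as much lower. TRIM28, the corepressor that KRAB domains bind, had log2 values of 12.53 with FOSL1 siRNA and 12.57 with control siRNA. MPHOSPH8, a HUSH subunit that reads H3K9 methylation, had 8.38 with FOSL1 siRNA and 7.87 with control siRNA, the highest difference of the list. It is 1 of the 2 counted as higher, and it reached the level only with FOSL1 siRNA. DNMT3B, a DNA methyltransferase, was at 0.27, the HP1 genes CBX3, CBX5 and CBX1 at 0.25, 0.20 and -0.05, and ATRX at 0.21. On the other side, DAXX, EHMT2, MTA1 and HDAC1 lay between -0.12 and -0.07.

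Zinc finger genes with other symbol stems were also more often above 0 than below. Of 85 on the array with the stems ZFP, ZBTB, ZKSCAN or ZSCAN, 53 passed, with a median log2 difference of 0.06, 38 above 0 (71.7%, background 49.8%), 13 at least 1.2-fold higher (24.5%, background 11.1%) and none as much lower (background 9.78%). The 34 ZBTB genes, which pair a BTB domain with zinc fingers, had a median of 0.05. All 5 ZKSCAN genes that passed were above 0, with a median of 0.31.

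The brightest members lay on both sides of 0. ZNF121, which lies in the run from ZNF414 to ZNF562, was the brightest, with 12.32 with FOSL1 siRNA and 12.07 with control siRNA. ZNF146, a protein made almost wholly of zinc fingers, had 11.46 with FOSL1 siRNA and 11.30 with control siRNA, ZNF317 had 11.30 and 11.17, and ZNF800 had 11.10 and 10.98. The 39 members with a mean of 10 or more had a median of 0.10, 23 above 0, 5 at least 1.2-fold higher (12.8%) and 2 as much lower (5.13%). The 2590 other genes this bright had a median of 0.01, with 6.56% higher and 6.33% lower by as much. A rank by brightness orders probe sets by signal and not genes by their amount of RNA.

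Where a member had several probe sets, these mostly pointed the same way. By sign alone this was so in 9 of 10 such members, ZNF451 being the exception. Only ZNF384, ZNF451, ZNF668 and ZNF865 had a further probe set at the level. In the other members the further probe set was under it. Some differences that shared a sign, such as -0.03 in ZNF445, were far smaller than the probe-set SD of 0.181. ZNF224 gave 0.40 on its brightest and 0.70 on its other probe set, ZNF383 0.40 and 0.43, ZNF322 0.44 and 0.30, and ZNF551 0.28 and 0.13. ZNF668 gave -0.20 and -0.10, and ZNF445 -0.20 and -0.03. The 3 probe sets of ZNF865 gave -0.13, -0.12 and -0.03. The other 236 members rested on 1 probe set each.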

How the data were processed

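UACC62 cells were measured on 2 arrays, 1 per condition. Per the labels' protocols, 100 ng of total RNA went through whole-transcript amplification before biotin labelling. The deposited log2 values, 1 per probe set and array, run from 2.226 to 14.81; the log base, background correction and summary method are not given in the sources used here, and log2 was taken from that range. Scanner intensities were not used here. Probe sets were named from the platform annotation, which gave 1 symbol to 16098 of 53427 probe sets, several to 0 and none to 37329. Symbols of all 14884 genes matched RefSeq (GRCh38.p14) by Entrez ID. A gene's brightest probe set stood for it.

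Differences are log2 with FOSL1 siRNA minus log2 with control siRNA. Counts past 1.2-fold, 1.5-fold and 2-fold describe size, and no test was possible. The precision is limited by the number of arrays. Where RefSeq lists several promoter windows for a gene, the first was used. Genes were named as the 12 highest and 12 lowest differences, the 8 brightest, the 4 nearest the level on each side, role lists and members with several probe sets; neighbours, copies and chromosome examples were chosen after their values were seen. Members and lists were chosen with earlier results of these data known. Loess trends (span 0.3) used statsmodels 0.14.6 in Python 3.11.15, and counts and trends were tested on simulated data. Alternatives covered scaling, filters, trends, probe sets and thresholds. Protein classes were not analysed here.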

Additional observations from a re-analysis of the deposited data

How the results depend on the processing

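The members' median difference stayed above 0 under the 11 alternatives run for it, between 0.04 without chromosome 19 and 0.10 with no filter on dim genes. The alternatives on both arrays reaching the level, on promoter GC and on chromosome 19 were chosen after seeing the data. With no filter, 471 ZNF genes entered and the counts were 29 higher and 5 lower at 1.5-fold, 131 and 33 at 1.2-fold, and 301 above 0. With a filter at the 75th percentile, 71 genes were left, with 0 and 0 at 1.5-fold, 9 and 3 at 1.2-fold, and 41 above 0. Shares over all genes under either setting are not given here. These counts therefore have no background and say nothing about ZNF genes in particular. Without chromosome 19, 135 members were left, with 2 at least 1.5-fold higher, 20 and 5 higher and lower at 1.2-fold, and 75 above 0; of these members 14.81% were at least 1.2-fold higher, where 11.4% of all genes off chromosome 19 that passed were. Requiring both arrays to pass left 1 member at least 1.5-fold higher. These settings drop or add genes by construction. Removing a trend on promoter GC left 2 such members among the 210 with a window, 3 of which passed 1.5-fold as reported, so both the set and the values moved. A threshold of 2-fold gave 0 and 0, and 1.2-fold gave 54 and 9. ZNF451 reversed to 0.017 as a mean of its probe sets, which disagree. Among the other recomputed values of named members, 403 shifted by under 1 probe-set SD and 72 were unaltered. Scaling had little room to act, since the columns were nearly matched as deposited. Leaving out relatives with similar proteins was not run, since no protein sequences were used here. No paired analysis was possible because each condition had 1 array. Low signal limits the dim members most, 19 of which passed in 1 array only.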
